A study of Mus musculus with 4 samples.

Results

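The 10 genes described here belong to the Wnt and beta-catenin pathway. They were chosen by name for their role in it, and their rows were found by Ensembl ID. All 10 were present among the 53465 IDs of the count table, and all 10 passed the filter of a mean of at least 1 CPM (counts scaled to library size), as did 12920 genes in all. They are the receptors Lrp6, Fzd5 and Fzd7, the transducer Ctnnb1, the destruction complex genes Apc, Axin1 and Axin2, and Lgr5, Ccnd1 and Glul, which are known as transcriptional targets of the pathway (Axin2 is a target too). RNA came from Hepa 1-6, an established mouse hepatocellular carcinoma line, either with a guide against Usp5 (sgUsp5, labelled Usp5 Knockdown) or with a control guide (sgcontrol, labelled WT). For each guide, RNA recovered with an antibody to YTHDF1 (RNA immunoprecipitation, RIP) and RNA of the lysate before precipitation (input) were sequenced, which gave 4 groups of 1 library each. The labels do not say whether the cells with a guide are a pool or a clone, and no further treatment is named for any group.

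Wnt proteins bind Frizzled receptors together with the coreceptor Lrp6. Without them, a complex built on Axin1, Axin2 and Apc holds beta-catenin, the product of Ctnnb1, for phosphorylation and degradation. With Wnt bound, beta-catenin accumulates, enters the nucleus and acts with TCF/LEF factors on target genes. In liver the pathway is known for setting the gene expression of hepatocytes around the central vein, where Glul is made, and it is often activated in hepatocellular carcinoma. YTHDF1 reads N6-methyladenosine, a methyl mark on mRNA, in the cytoplasm and is known for promoting translation, and the transcripts of Fzd5, Fzd7 and Lrp6 are among those reported as linked to it. USP5 is a deubiquitinase, and the study's title names it as a stabiliser of YTHDF1.

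The libraries held between 29898171 and 33941019 counts. With 1 library per group, no difference between guides has a replicate check. The table lists genes by ID and was not paired with names here beyond these 10 genes, so neither Usp5 itself, as a check of the guide, nor markers of the cell type were analysed here. Libraries differed by more than counting error allows. Scatter was measured as the median squared deviation from equal normalised levels, so real differences between the libraries are part of it. For genes whose mean log2 CPM was 0 to 6, this scatter was 18.4 times the binomial variance for the sgUsp5 RIP against the sgcontrol RIP and 57.9 times it for the inputs. For RIP against input it was 78.2 times it in sgUsp5 cells and 91.8 times it in sgcontrol cells. For this reason 2 intervals are used below. The counting interval is the 95% Clopper-Pearson interval of 1 library's share of the reads of a gene in both, and covers counting error only: without molecular identifiers, PCR copies of 1 molecule count several times. The widened interval is the same after both counts were divided by the scatter of that pair of libraries. That scatter was measured on genes less abundant than 8 of the 10 genes (all but Fzd7 and Lgr5), and the interval narrows with the read count alone. For those 8 genes it can be too narrow, and a widened interval that excludes no difference is given as a value and not as a call. Because real differences enter the scatter, it can also be too wide. A widened interval that includes no difference therefore does not show that there is none. A ratio is also set beside the middle 95% of the 200 genes nearest to it in mean CPM, called the range of genes of like abundance.

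All 10 transcripts were well sampled. The fewest reads were the 634 of Lgr5 in the sgUsp5 input and the most were the 35135 of Axin2 in the sgcontrol RIP, so that the exact Poisson interval of a level reached from 7.63% below to 8.10% above it at the widest. Summed over the 10 genes, TMM-normalised levels were 2964 CPM in the sgUsp5 RIP and 2647 CPM in the sgUsp5 input, and 3202 CPM in the sgcontrol RIP and 2952 CPM in the sgcontrol input. CPM values are not corrected for transcript length, so levels are compared between libraries and not between genes.

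**Figure D1:**
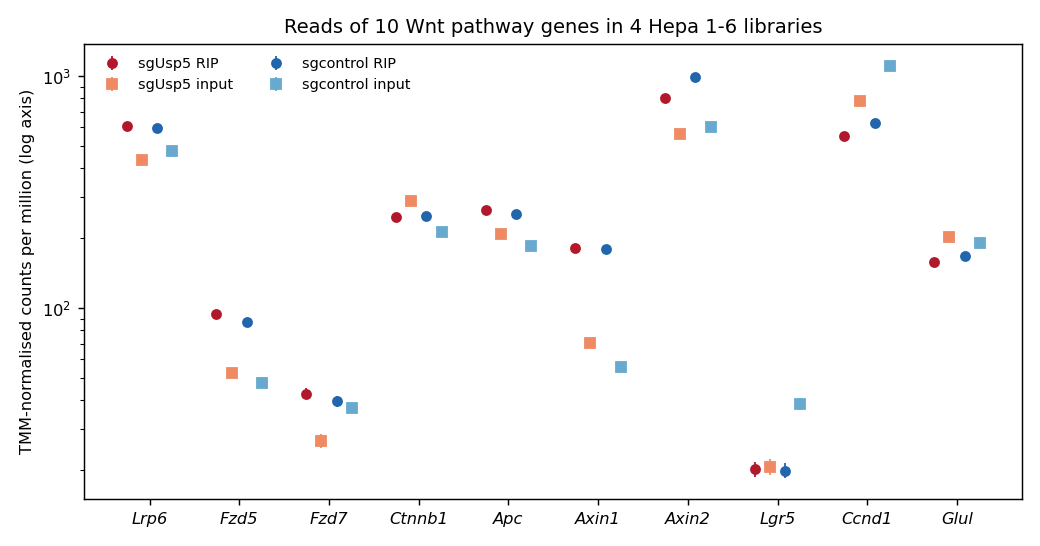
TMM-normalised CPM (log axis) of the 10 genes in the sgUsp5 RIP, sgUsp5 input, sgcontrol RIP and sgcontrol input libraries, 1 library each; bars are exact 95% Poisson intervals and are mostly smaller than the symbols. The RIP libraries lie above both inputs for Lrp6, Fzd5, Fzd7, Apc, Axin1 and Axin2 and below both inputs for Ccnd1, Glul and, by little in sgUsp5 cells, Lgr5, although with library totals Lgr5 in sgUsp5 cells turned to log2 0.10 and Glul in sgcontrol cells to 0.0021.

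Which of these RNAs were recovered with YTHDF1 was asked by RIP over input. The scaffold Axin1 stood highest, Fzd5 and Axin2 were also enriched, and the cell cycle gene Ccnd1 was depleted. Lrp6 was enriched too, but its call was lost under some of the alternatives given below. TMM scaling takes most genes as equal between RIP and input, so enrichment and depletion here are relative to most genes. RIP was tested against input over both guides by the quasi-likelihood test of edgeR, with each guide as a block. This left 1 residual degree of freedom among the 4 libraries. The variance of a gene is then drawn largely from that of other genes, so an adjusted p does not rest on that gene's own replication. At a Benjamini-Hochberg adjusted p under 0.05, 4 of the 10 genes were higher in the RIP, where 10.2% of all genes were, and 1 was lower, where 11.3% were. Among the 5244 genes averaging 32 CPM or more, which include 9 of the 10 genes, the shares were 19.1% and 23.2%. The median log2 RIP over input in this fit was 0.39 over the 10 genes and 0.08 over all 12920 genes. Any change of recovery with the guide counts as error in this test, and since no control precipitate was analysed here, binding to the beads and binding to YTHDF1 cannot be told apart.

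By size alone, meaning a difference of 2-fold or more whose counting interval does not include 0 on the log2 scale, 1 gene (Axin1) was higher in the RIP of sgUsp5 cells and 0 were lower, where 15.9% and 13.7% of all genes were. In sgcontrol cells it was again Axin1 alone that was higher and 0 were lower, against 18.4% and 15% of all genes. Most genes past 2-fold were of low abundance: at a mean of at least 32 CPM the shares were 6.9% and 8.52% in sgUsp5 cells and 9.21% and 11.5% in sgcontrol cells. At 1.5-fold, Fzd5, Fzd7 and Axin1 were higher and 0 genes lower in sgUsp5 cells (27.1% and 25% of all genes). In sgcontrol cells Fzd5, Axin1 and Axin2 were higher and Lgr5 and Ccnd1 lower at that size (29.5% and 26.6%). Read against the shares over all genes, the counts of 0 to 3 of the 10 genes are near or below the background. The 1.5-fold shares of genes averaging 32 CPM or more were not computed, so the 1.5-fold counts have no background of like abundance. The counting interval excluded no difference in the same direction for both guides for 5 genes above input (Lrp6, Fzd5, Apc, Axin1 and Axin2, against 30% of all genes) and 2 below it (Ccnd1 and Glul, against 28.1%), and in opposite directions for 1 gene, Ctnnb1 (15.3%). This rule has no size limit and is met more easily with more reads. Its shares among genes averaging 32 CPM or more were not computed, so no excess is read from these counts.

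Among the receptors, Lrp6 (ENSMUSG00000030201), the coreceptor that Wnt brings together with Frizzled, lies at chr6:134446476-134566913 (RefSeq annotation of GRCm38.p6, as for all positions below). It was at 606 CPM in the sgUsp5 RIP and 435 CPM in the sgUsp5 input, and at 597 CPM in the sgcontrol RIP and 476 CPM in the sgcontrol input. Both RIP libraries were above both inputs. The log2 ratio was 0.48 in sgUsp5 cells (widened interval 0.19 to 0.77) and 0.33 in sgcontrol cells (0.03 to 0.64), and over both guides Lrp6 was 1.32-fold higher (log2 0.40, SE 0.12, edgeR adjusted p = 0.037). This call does not hold under 3 of the alternatives: edgeR's adjusted p was 0.060 without the block, 0.059 with DESeq2 size factors and 0.078 with a looser filter.

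Fzd5 (ENSMUSG00000045005, chr1:64730558-64737750), a Frizzled receptor, was at 93.9 CPM in the sgUsp5 RIP and 52.3 CPM in the sgUsp5 input. In sgcontrol cells it was at 87 CPM in the RIP and 47.7 CPM in the input. The levels of both RIP libraries again lay above both inputs, and the ratios were alike for the guides: log2 0.85 (widened interval 0.04 to 1.70) in sgUsp5 cells and 0.87 (-0.05 to 1.85) in sgcontrol cells. Over both guides Fzd5 was 1.81-fold higher in the RIP (log2 0.86, SE 0.20, edgeR adjusted p = 0.013, between 0.0024 and 0.021 under the alternatives).

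Fzd7 (ENSMUSG00000041075, chr1:59482147-59486955), another Frizzled receptor, had unlike levels in the inputs. It was at 42.7 CPM in the sgUsp5 RIP and 26.7 CPM in the sgUsp5 input, but at 39.6 CPM in the sgcontrol RIP and 37.2 CPM in the sgcontrol input. The log2 ratio was 0.68 in sgUsp5 cells and 0.09 in sgcontrol cells, and the widened intervals (-0.51 to 1.94 and -1.11 to 1.33) both include no difference. Over both guides its log2 ratio of 0.38 (SE 0.27) missed the threshold (edgeR adjusted p = 0.36). Of the 3 transcripts reported as linked to YTHDF1, Lrp6 and Fzd5 thus passed the test and Fzd7 did not. Higher in the RIP by this test were 10.2% of all genes and 19.1% of genes averaging 32 CPM or more. The call of Lrp6 was lost under some of the alternatives, as given above.

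Ctnnb1 (ENSMUSG00000006932, chr9:120933400-120960507), which encodes beta-catenin, was at 248 CPM in each RIP library. The inputs lay on either side of this level, with 289 CPM in sgUsp5 cells and 212 CPM in sgcontrol cells. The log2 ratio was therefore -0.22 in sgUsp5 cells (counting interval -0.27 to -0.18, widened -0.62 to 0.18) and 0.23 in sgcontrol cells (counting interval 0.18 to 0.28, widened -0.24 to 0.70). Over both guides it was 0.0034 (SE 0.15, edgeR adjusted p = 0.99), and its sign turned with the scaling.

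The destruction complex genes all had more reads in the RIP than in the input with either guide. Axin1 (ENSMUSG00000024182, chr17:26131217-26195811), the scaffold of the complex, was at 182 CPM in the sgUsp5 RIP and 70.4 CPM in the sgUsp5 input. It was at 179 CPM in the sgcontrol RIP and 55.6 CPM in the sgcontrol input. RIP over input was 2.58-fold in sgUsp5 cells (log2 1.37, widened interval 0.72 to 2.05) and 3.21-fold in sgcontrol cells (log2 1.68, 0.91 to 2.54). Both values lie above the range of genes of like abundance, whose upper ends were 1.26 and 1.17, and 99% and 99.5% of those genes were lower. Over both guides Axin1 was 2.88-fold higher (log2 1.53, SE 0.18, edgeR adjusted p = 0.00044, at most 0.0051 under the alternatives).

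Axin2 (ENSMUSG00000000142, chr11:108917828-108950783), a scaffold related to Axin1 and a feedback target of the pathway, was at 800 CPM in the sgUsp5 RIP and 565 CPM in the sgUsp5 input. In sgcontrol cells it was at 985 CPM in the RIP and 604 CPM in the input. Its log2 ratio was 0.50 in sgUsp5 cells (widened interval 0.25 to 0.76) and 0.71 in sgcontrol cells (0.45 to 0.97), both within the range of genes of like abundance (up to 1.21 and 1.25). Over both guides it was 1.52-fold higher (log2 0.60, SE 0.11, edgeR adjusted p = 0.0047).

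Apc (ENSMUSG00000005871), the third of these genes, a large scaffold that binds beta-catenin, lies on chromosome 18. It was at 265 CPM in the sgUsp5 RIP and 209 CPM in the sgUsp5 input, and at 254 CPM in the sgcontrol RIP and 186 CPM in the sgcontrol input. With log2 ratios of 0.34 in sgUsp5 cells and 0.45 in sgcontrol cells, its value over both guides (0.40, SE 0.14) was like that of Lrp6 and just missed the threshold (edgeR adjusted p = 0.070). It passed with library totals (0.025) and with a mean of at least 5 CPM (0.034).

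The targets other than Axin2 had log2 ratios below 0 with either guide, except that with library totals Lgr5 in sgUsp5 cells and Glul in sgcontrol cells turned to 0.10 and 0.0021. Ccnd1 (ENSMUSG00000070348, chr7:144929931-144939831), which encodes the G1 cyclin D1, was at 548 CPM in the sgUsp5 RIP and 776 CPM in the sgUsp5 input. It was at 624 CPM in the sgcontrol RIP and 1106 CPM in the sgcontrol input. Both RIP libraries were thus below both inputs, with log2 ratios of -0.50 in sgUsp5 cells (widened interval -0.76 to -0.25) and -0.82 in sgcontrol cells (-1.07 to -0.58). Over both guides Ccnd1 was 1.58-fold lower in the RIP (log2 -0.66, SE 0.12, edgeR adjusted p = 0.0038, at most 0.044 under the alternatives). Among genes of like abundance these values are not at the edge: 33% of those genes were lower in sgUsp5 cells and 21.5% in sgcontrol cells.

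Glul (ENSMUSG00000026473, chr1:153899929-153909723), glutamine synthetase, was at 158 CPM in the sgUsp5 RIP and 202 CPM in the sgUsp5 input, and at 168 CPM in the sgcontrol RIP and 190 CPM in the sgcontrol input. The log2 ratios were -0.36 and -0.18, and the value over both guides (-0.27, SE 0.15) missed the threshold (edgeR adjusted p = 0.24). Lgr5 (ENSMUSG00000020140, chr10:115450314-115587780), a receptor for R-spondins that marks stem cells in several tissues, had 3 libraries at nearly the same level and 1 above them. It was at 20.2 CPM in the sgUsp5 RIP, 20.6 CPM in the sgUsp5 input and 19.9 CPM in the sgcontrol RIP, but at 38.4 CPM in the sgcontrol input. Its log2 ratio was -0.03 in sgUsp5 cells and -0.95 in sgcontrol cells, 1.93-fold lower (widened interval -2.47 to 0.48), and the value over both guides (-0.49, SE 0.33) was not called (edgeR adjusted p = 0.34).

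**Figure D2:**
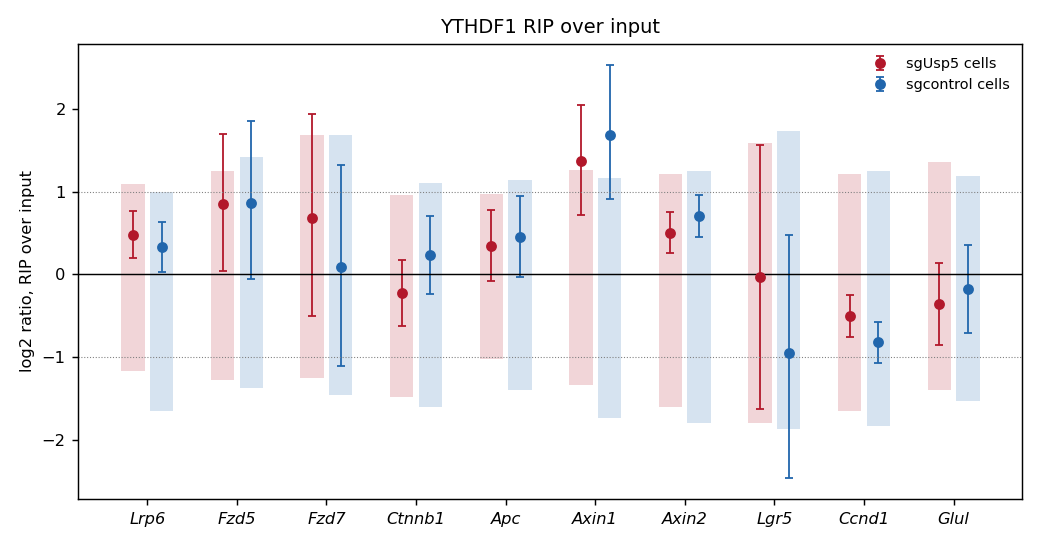
Log2 RIP over input of the 10 genes in sgUsp5 cells (red) and sgcontrol cells (blue), 1 pair of libraries each. Points are the TMM-normalised ratios, bars the widened 95% intervals, shaded boxes the middle 95% of the 200 genes nearest in mean CPM, and dotted lines 2-fold. Axin1 (1.37 and 1.68) lies above its boxes, and the other genes lie within theirs.

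**Figure D3:**
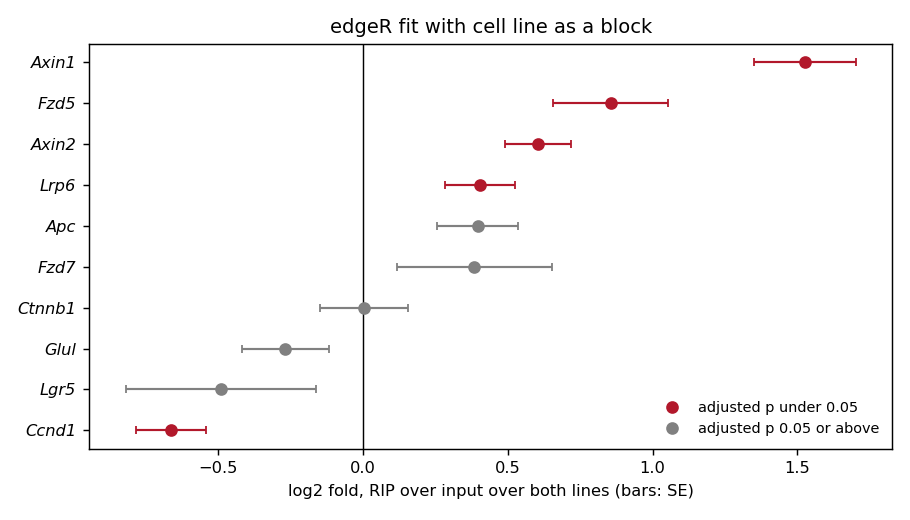
Log2 RIP over input over both guides from the edgeR fit with the guide (cell line) as a block, with its SE, for the 10 genes in order of size. Axin1, Fzd5, Axin2, Lrp6 (higher) and Ccnd1 (lower) have an adjusted p under 0.05; Apc, Fzd7, Ctnnb1, Glul and Lgr5 do not.

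By role, the log2 ratios of the 3 receptors were between 0.48 and 0.85 in sgUsp5 cells and between 0.09 and 0.87 in sgcontrol cells. Those of Apc, Axin1 and Axin2 were between 0.34 and 1.37 in sgUsp5 cells and between 0.45 and 1.68 in sgcontrol cells. Lgr5, Ccnd1 and Glul were between -0.50 and -0.03 in sgUsp5 cells and between -0.95 and -0.18 in sgcontrol cells. The median over the 10 genes was 0.41 in sgUsp5 cells and 0.28 in sgcontrol cells, beside 0.02 and 0.03 over all genes and -0.04 and -0.05 over genes averaging 32 CPM or more. Lgr5 is also a receptor and Axin2 also a target, and each was counted in 1 role only. With Lgr5 among the receptors, their ratios would reach down to -0.03 in sgUsp5 cells and -0.95 in sgcontrol cells. With Axin2 (0.50 and 0.71) among the targets, these would not all be below 0. The genes were picked for their pathway with earlier results of these data known, so the order by role is a description of 10 values.

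RNA levels with the Usp5 guide were compared between the inputs. Lgr5 and Ccnd1, both targets, and Fzd7 were lower with sgUsp5 by 1.39-fold to 1.86-fold, Ctnnb1 was 1.37-fold higher and Axin1 1.27-fold higher, and the remaining 5 genes were within log2 -0.13 and 0.17. None of the 10 genes reached 2-fold (12.4% of all genes were higher and 12.1% lower at that size, and 1.11% and 1.07% of genes averaging 32 CPM or more). At 1.5-fold only Lgr5 was lower (20% of all genes). No p-value is given, since each guide has 1 input. In bulk RNA, fewer cells that express a gene and less of its RNA per cell cannot be told apart.

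Ccnd1 was at 776 CPM in the sgUsp5 input and 1106 CPM in the sgcontrol input, a log2 ratio of -0.51 (widened interval -0.70 to -0.32). It lies just below the range of genes of like abundance (-0.49 to 0.51), with 2.5% of them lower. Over all chosen genes and comparisons, 50 values were set beside such a range, and 3 lay outside it. These were Ccnd1 in the inputs and Axin1 in RIP over input with either guide. A middle 95% leaves some genes outside by construction, so the narrow miss of Ccnd1 is not a call. Lgr5 had the ratio furthest from 0, at log2 -0.90 (20.6 CPM with sgUsp5, 38.4 CPM with sgcontrol), but with fewer reads (634 and 1097) its widened interval of -2.12 to 0.25 includes no difference and 9% of genes of like abundance were lower. Fzd7 was at log2 -0.48 (widened interval -1.59 to 0.60), with 18.5% of such genes lower. The other targets, Axin2 (log2 -0.10) and Glul (0.09), were nearer to 0, and the widened intervals of Lgr5, Axin2 and Glul include no difference.

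Ctnnb1 was at 289 CPM in the sgUsp5 input and 212 CPM in the sgcontrol input, log2 0.45 (widened interval 0.08 to 0.82), and 97% of genes of like abundance were lower. It stays just within their range (-0.60 to 0.46). Axin1 followed at log2 0.34 (widened interval -0.41 to 1.11), Apc at 0.17, Fzd5 at 0.13 and Lrp6 at -0.13, all within the range of genes of like abundance.

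In the RIP libraries the guides differed less. Axin2 was at 800 CPM in the sgUsp5 RIP and 985 CPM in the sgcontrol RIP, a log2 ratio of -0.30 (widened interval -0.40 to -0.20), the furthest from 0 of the 10 genes. It lies within the range of genes of like abundance (-0.35 to 0.38), with 5.5% of them lower. Ccnd1, with 548 CPM in the sgUsp5 RIP and 624 CPM in the sgcontrol RIP, was at log2 -0.19 (widened interval -0.31 to -0.06), with 15% of genes of like abundance lower. The other 8 genes were between -0.09 (Glul) and 0.11 (Fzd5 and Fzd7), and their widened intervals include no difference. None of the 10 genes reached 2-fold (4.55% of all genes were higher and 4.64% lower, and 0.0763% and 0.0953% of genes averaging 32 CPM or more). Ctnnb1, at log2 -0.00075, turned to positive values of at most 0.02 under the other scalings.

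**Figure D4:**
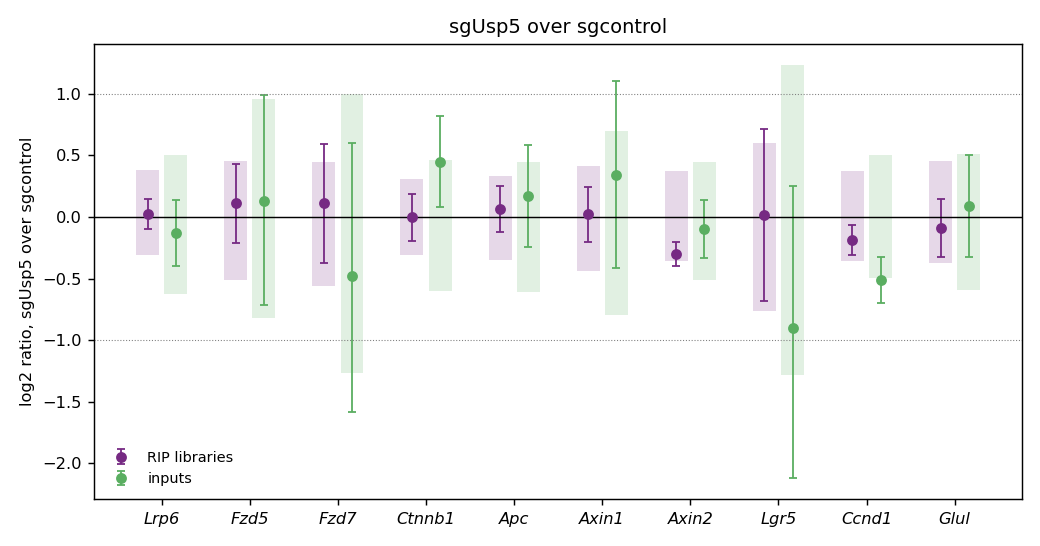
Log2 sgUsp5 over sgcontrol of the 10 genes in the RIP libraries (purple) and in the inputs (green), 1 pair of libraries each, with widened 95% intervals, the middle 95% of the 200 genes nearest in mean CPM (shaded) and dotted lines at 2-fold. The RIP libraries spread between -0.30 (Axin2) and 0.11 (Fzd5) and the inputs between -0.90 (Lgr5) and 0.45 (Ctnnb1).

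The ratios in the RIP libraries and in the inputs share no library and can be set side by side. Both compare the same lysates, however, so agreement between them is not a repeat of the guide difference. Ccnd1 and Axin2 were lower with sgUsp5 in both, with counting intervals that exclude no difference (16% of all genes), and Fzd5 and Apc were higher in both (14.6%). Fzd7 and Glul went in opposite directions by that rule (24.6%). Here too the rule is met more easily with more reads, and its shares among abundant genes were not computed. The ratio was further from 0 in the inputs than in the RIP libraries for 8 of the 10 genes, with a median log2 size of 0.08 in the RIP libraries and 0.26 in the inputs. The same was seen for 64.3% of genes averaging 32 CPM or more, where the medians were 0.15 and 0.24.

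Whether recovery with YTHDF1 differed with the Usp5 guide was asked by the ratio of the enrichments, sgUsp5 over sgcontrol. It reached 2-fold for none of the 10 genes (13.3% of all genes were higher and 13.8% lower, and 1.66% and 1.33% of genes averaging 32 CPM or more). At 1.5-fold, Lgr5 and Fzd7 were higher (20.6% of all genes). Lgr5 was 1.89-fold higher (log2 0.92, widened interval -0.34 to 2.18) and Fzd7 1.50-fold higher (log2 0.59, -0.51 to 1.69). For both, the level in the RIP libraries hardly differed between guides and the difference lay in the inputs, as given above.

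Ctnnb1 had the lowest ratio of enrichments, at log2 -0.45 (widened interval -0.86 to -0.05), with 5.5% of genes of like abundance lower and a level of 248 CPM in both RIP libraries. Ccnd1 was at 0.32 (0.10 to 0.54), with 83.5% of genes of like abundance lower. The remaining genes, Lrp6 (0.15), Fzd5 (-0.02), Apc (-0.11), Glul (-0.18), Axin2 (-0.20) and Axin1 (-0.32), had widened intervals that include no difference, and the sign of Fzd5 turned with DESeq2 size factors and upper-quartile factors. All 10 ratios lie within the range of genes of like abundance. The transcripts reported as linked to YTHDF1 thus had ratios of enrichments of -0.02 (Fzd5), 0.15 (Lrp6) and 0.59 (Fzd7). The counting intervals of Fzd7 and Lrp6 exclude no difference (0.42 to 0.76 and 0.11 to 0.19) but cover counting error only. The widened intervals of Fzd7 (-0.51 to 1.69), Lrp6 (-0.14 to 0.44) and Fzd5 (-0.87 to 0.83) all include no difference.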

How the data were processed

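The authors deposited raw read counts per Ensembl gene ID for the 4 libraries. Per the submitters' processing notes HISAT2 2.1.0, featureCounts 1.6.3 and the mm10 genome were used. The annotation release and the handling of strand, multiple matches and duplicates were not stated, so reads of overlapping or near-identical genes may be shared or lost. Columns were matched to libraries by the short names in the labels, and 0 columns were left over. Per the labels' protocols, input was 10% of the lysate, rRNA was depleted and the cDNA was amplified by PCR.

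Counts were scaled with TMM factors (1.06 in the sgUsp5 RIP, 0.97 in the sgUsp5 input, 1.05 in the sgcontrol RIP and 0.93 in the sgcontrol input; edgeR 4.0.16, R 4.3.3). Each log2 ratio had 0.5 counts added to both sides, scaled by library size. The interval of a ratio of enrichments comes from the sum of the reciprocal counts. In its widened form the reciprocal counts of the inputs and of the RIP libraries were multiplied by the scatter of that guide pair (57.9 and 18.4). RIP was tested against input with edgeR's quasi-likelihood test over all 12920 genes, with the guide as a block, since input and RIP of a guide come from 1 lysate. The SE was derived from the fold and its F statistic. For the guide there is no such test, because each has 1 lysate. The code was run on simulated data. Recovery of changed genes was required there of the size rule for RIP over input, without scatter beyond counting. It was not required of the edgeR test. The genes and rules were chosen with earlier results of these data known; all 10 genes are named whatever their values. The gene names come from the list that gave their IDs. The reference table (49997 mouse genes) holds 0 Ensembl IDs, so wider lists of Wnt pathway genes and cell type markers were not analysed here. Neither guide has a second lysate, so no p-value measures the spread between repeat cultures of a guide. The p-values rest on the spread between these libraries and on variance shared among genes. In that spread, differences of guide, culture and technique cannot be told apart.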

Additional observations from a re-analysis of the deposited data

Results flagged for a closer look

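For 5 of the genes the log2 ratio had opposite signs in the pairs of libraries compared. The share of all genes with opposite signs of any size was not computed. In no case was the difference tested, since each pair is 1 library against 1. For Ctnnb1, RIP over input was at -0.22 in sgUsp5 cells and 0.23 in sgcontrol cells, a ratio of enrichments of log2 -0.45. The same gene had sgUsp5 over sgcontrol at -0.00075 in the RIP libraries and 0.45 in the inputs. The counting interval of that RIP value (-0.04 to 0.04) includes no difference, and the value turned positive under the other 3 scalings (at most 0.018), so that its opposite sign holds with TMM factors only. Fzd7 was at 0.11 in the RIP libraries and -0.48 in the inputs (ratio of enrichments 0.59), and Lgr5 was at 0.02 and -0.90 (0.92). Lrp6 was at 0.02 and -0.13 (0.15), and Glul at -0.09 and 0.09 (-0.18). The counting intervals of the RIP values of Lrp6 (-0.01 to 0.05) and Lgr5 (-0.14 to 0.18) include no difference. By counting intervals only Fzd7 and Glul were opposite between the RIP libraries and the inputs, as were 24.6% of all genes. In RIP over input only Ctnnb1 was opposite between the guides by that rule (15.3% of all genes).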

How the results depend on the processing

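The calls of Axin1, Fzd5, Axin2 and Ccnd1 in RIP over input over both guides held under all alternatives tested: no guide block, DESeq2's Wald test, DESeq2 size factors, library totals and both other filters. That of Lrp6 was lost without the guide block (edgeR adjusted p = 0.060), with DESeq2 size factors in edgeR (0.059) and with at least 10 reads in all (0.078), and Apc was gained with library totals (0.025) and a mean of at least 5 CPM (0.034). Without the guide block the 10 genes held 3 higher and 1 lower. Of all 12920 genes 1321 were higher and 1461 lower, beside 1020 and 1215 without the block. Library totals gave 1686 and 969; they moved the median log2 RIP over input of all genes to 0.15 in sgUsp5 cells (from 0.02) and to 0.21 in sgcontrol cells (from 0.03), and the share of higher genes among those past 2-fold from 55.0% to 66.4% in sgcontrol cells. Fzd5 then passed 2-fold in sgcontrol cells beside Axin1 (2 genes). With either pair of libraries left out, no test is left, and only Ctnnb1 changed sign (-0.22 to 0.23).

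Ctnnb1 over both guides also turned to -0.014 without the block, -0.020 with DESeq2's Wald test and -0.025 with DESeq2 size factors. In the RIP libraries it turned to 0.018 (DESeq2 size factors), 0.016 (upper-quartile factors) and 0.011 (library totals). The ratio of enrichments of Fzd5 turned to 0.0073 and 0.0051 with the first 2 of these, and with library totals RIP over input turned to 0.10 for Lgr5 in sgUsp5 cells and 0.0021 for Glul in sgcontrol cells. Adding 2 counts changed no value of the 10 genes beyond its counting interval.

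The number of all genes past the size rule depends on the filter and the interval, by construction. In the order RIP over input in sgUsp5 cells, in sgcontrol cells, inputs, RIP libraries and ratio of enrichments it was 3829, 4319, 3165, 1187 and 3495. At a mean of at least 5 CPM it was 2094, 2594, 1288, 224 and 1527, at 1.5-fold 6737, 7247, 5155, 2513 and 5466, and with widened intervals 828, 1060, 224, 154 and 251. With 10 reads in all it was 6990, 7478, 5617 and 4179 for the first 4. At 1.5-fold, Fzd5, Fzd7 and Axin1 were higher in the RIP with sgUsp5 (27.1% of all genes). With sgcontrol, Fzd5, Axin1 and Axin2 were higher (29.5%) and Lgr5 and Ccnd1 lower (26.6%). Lgr5 was lower in the sgUsp5 input (20%), and Fzd7 and Lgr5 were higher in the ratio of enrichments (20.6%).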
